A study of Mus musculus with 6 samples.

Results

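The 34 genes described here encode enzymes of the tricarboxylic acid (TCA) cycle, of the reactions that fill and drain it, and of the amino acid reactions that share its intermediates. They were taken by symbol from a fixed list, chosen with earlier results of these data known. All 34 were present among the 22272 gene symbols of the deposited table. RNA had been sequenced from C2C12 cells, a mouse myoblast line that grows as muscle precursors and fuses into fibres when differentiation is induced. Both groups were undifferentiated at day 0: 3 samples are titled GFP, for green fluorescent protein, with the genotype WT, and 3 samples overexpressed ChREBP-beta. The beta form is a short and active product of Mlxipl, a gene whose transcription factor responds to glucose and is known for driving genes of sugar use and fat synthesis. The sources used here do not say how the cells were made to overexpress it, under which promoter, or whether replicates were separate cultures. The p-values below therefore rest on the spread among these 6 libraries, part of which may be technical. Values per library are given in the order of replicates 1 to 3. The question here is how transcripts of central carbon and amino nitrogen metabolism differed between the groups.

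In the TCA cycle, acetyl-CoA joins oxaloacetate to form citrate, which is oxidised stepwise back to oxaloacetate while the electrons pass to the respiratory chain. Anaplerotic reactions, such as the carboxylation of pyruvate, replace intermediates that leave the cycle for synthesis. Transaminases move nitrogen between glutamate and the keto acids, and in skeletal muscle the breakdown of branched-chain amino acids supplies both nitrogen and carbon to this network.

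Deposited counts summed to between 17600238 and 19163834 per library. Mlxipl stood at 0.501 to 0.719 CPM (counts scaled to library size) in the GFP libraries and at 215 to 222 CPM under ChREBP-beta, so the targeted gene followed the labels of all 6 libraries. All 6 listed myoblast genes were read under GFP, and all 6 were called lower with ChREBP-beta. Their summed level was 342 to 374 CPM under GFP and 119 to 126 CPM under ChREBP-beta, the largest part of it Des. Myod1, Pax7 and Cdh15 fell 24.9-fold, 21.6-fold and 16.8-fold, and Myf5, Des and Itga7 2.86-fold, 2.82-fold and 2.07-fold. Under ChREBP-beta, Myod1 and Cdh15 were left at means of 1.23 and 0.939 CPM, and Pax7 at 0, 0 and 6 counts. Markers of other organs were uneven among the GFP libraries. The 7 hepatocyte markers, of which 5 could be tested and none was called, summed to 0.209, 0.0553 and 24.9 CPM in the GFP libraries and to 15.3 to 21.4 CPM under ChREBP-beta, and the 5 lung epithelium markers to 0.523, 135 and 94.1 CPM in the GFP libraries and to 70.2 to 90.9 CPM under ChREBP-beta. Red blood cell markers summed to 3.35 to 11.0 CPM and 5.49 to 9.79 CPM, and leukocyte markers to 7.85 to 23.4 CPM and 18.3 to 22.9 CPM. Of these, 3 of 5 and 4 of 5 genes could be tested, and none was called, nor was any of the 5 lung epithelium markers. Adipocyte markers summed to 0.105 to 0.724 CPM and 0.231 to 1.36 CPM, with Lep at 0 throughout, and all were too low to be tested. Of the 6 fibroblast markers 4 were higher and 2 lower, and their sum ran from 827 to 861 CPM under GFP and from 875 to 899.7 CPM under ChREBP-beta. The part of any of these in the results below was not tested. Each library was left out in turn, but this cannot test the part of the myoblast or hepatocyte genes. The myoblast genes were lower in every ChREBP-beta library, and the hepatocyte sum was low in more than a single GFP library. The lung epithelium sum was low in GFP replicate 1 alone. Without that library 18 members were called lower and 2 higher, beside 19 and 2 with all 6 libraries.

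Most of the enzymes were read at lower levels with ChREBP-beta, by small steps, and a few by large ones. Of the 33 members with enough counts to test, 19 fell, 2 rose and 12 were not called (edgeR quasi-likelihood test, adjusted p under 0.05 over all 12166 genes tested). Across all genes tested 29.3% were called lower and 29.5% higher, together 58.7%, whereas 57.6% of the tested members were called lower. The median log2 fold change of the tested members was -0.16, beside -0.0040 for all genes tested, and the members ran from -3.58 to 0.34. Falls of at least 1.25-fold were called in 9 members, beside 19% of all genes tested. The 4 falls of at least 2-fold were in Ogdhl, Pcx, Me3 and Bcat2, beside 7.42% of all genes tested. Neither rise reached that size, which 4.06% of all genes tested did. All libraries of the ChREBP-beta group lay below all GFP libraries for 20 tested members and above them for 4, where 32% and 31.3% of all genes tested were separated in these directions, together 63.2%. In RNA from bulk cultures, fewer cells of a kind and less RNA per cell cannot be told apart.

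**Figure D1:**
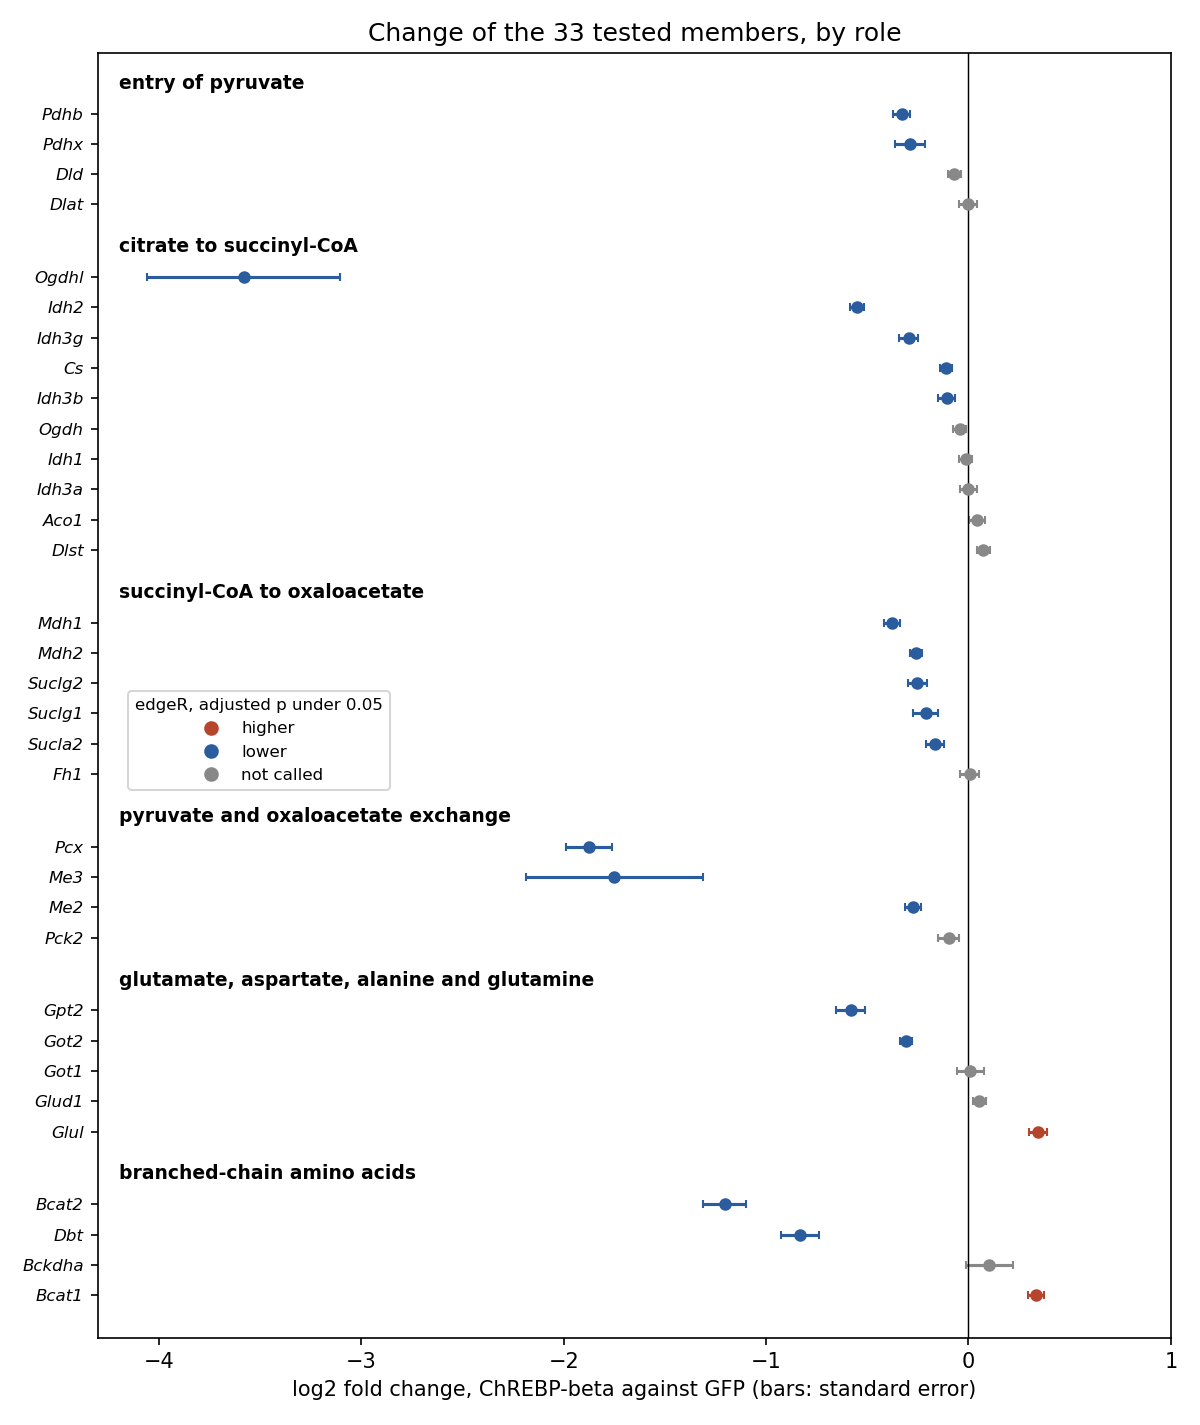
Log2 fold change (horizontal axis, ChREBP-beta against GFP, bars showing the standard error) of the 33 tested members, ordered within 6 roles on the vertical axis and coloured by the edgeR call. Points left of 0 were lower with ChREBP-beta; Ogdhl, Pcx, Me3 and Bcat2 stand farthest left, and Glul and Bcat1 are the members called higher.

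Summed over the 34 members, the GFP libraries held 3469, 3473 and 3468 CPM and the ChREBP-beta libraries 3119.8, 3196 and 3201 CPM, so the summed level was 8.58% lower. The sum for enzymes of pyruvate and oxaloacetate exchange was 20.5% lower (168 ± 1.84 CPM under GFP and 134 ± 3.19 CPM under ChREBP-beta, SD, n = 3). For the span from succinyl-CoA to oxaloacetate it was 14.5% lower, and for the branched-chain enzymes the groups overlapped, at 148 to 157 CPM under GFP and 149.6 to 163 CPM under ChREBP-beta. These sums are given as a description and are led by the most abundant genes.

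Per kilobase of merged exons, the highest mean levels in the GFP libraries were those of Mdh2 at 70.2 ± 1.22, Idh1 at 63.1 ± 1.81, Cs at 62.5 ± 0.536, Idh2 at 61.2 ± 0.956, Got2 at 61.2 ± 1.50 and Glud1 at 57.3 ± 1.14 CPM per kilobase (SD, n = 3). Idh1 differed from Cs, and Idh2 from Got2, by less than their spread. With ChREBP-beta the order was Idh1 at 62.4 ± 0.659, Glud1 at 59.4 ± 1.48, Mdh2 at 58.7 ± 1.80 and Cs at 57.9 ± 1.27 CPM per kilobase. Here Glud1 differed from Mdh2, and Mdh2 from Cs, by less than their spread. Got2 stood at 49.4 ± 0.700 and Idh2 at 41.8 ± 0.948 CPM per kilobase. The lowest levels in both groups were those of Me3, Bckdhb, Ogdhl and Pcx, all under 4 CPM per kilobase.

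Pyruvate enters the cycle through the pyruvate dehydrogenase complex, of which 4 members were followed. Pdhb, the beta subunit of its first enzyme, was read at 92.6, 91.0 and 87.8 CPM under GFP and at 70.5, 72.0 and 73.4 CPM under ChREBP-beta. It fell by 0.33 on the log2 scale (SE 0.041, edgeR adjusted p = 2.14e-07), with no overlap between the groups. Pdhx, which ties the third enzyme to the core of the complex, had 26.8, 27.2 and 27.6 CPM under GFP and 20.0, 23.1 and 23.8 CPM under ChREBP-beta and fell 1.22-fold (edgeR adjusted p = 0.00198). The core enzyme and the third enzyme did not pass the test. Dlat, the core acetyltransferase, stood at 69.8, 69.7 and 66.5 CPM under GFP and at 71.0, 65.5 and 69.2 CPM under ChREBP-beta (edgeR adjusted p = 0.966), the groups overlapping. Dld, the dihydrolipoyl dehydrogenase that this complex shares with the 2-oxoglutarate and branched-chain complexes, had 182, 177 and 182 CPM under GFP and 173, 172 and 170.4 CPM under ChREBP-beta. Its groups did not overlap, but the difference of -0.07 on the log2 scale missed the threshold (SE 0.031, edgeR adjusted p = 0.0564).

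From citrate to succinyl-CoA, 5 of 10 members fell, none rose and 5 were not called. Of all genes tested, 29.3% were called lower and 58.7% in either direction. Apart from the barely read Ogdhl, the largest change in this span was in Idh2, the mitochondrial isocitrate dehydrogenase that makes NADPH (ENSMUSG00000030541.16, chromosome 7, 80094846 to 80115392, minus strand, GRCm38). It was read at 156, 159.9 and 159.8 CPM in the GFP libraries and at 105, 110.1 and 109 CPM in the ChREBP-beta libraries, a fall of 1.46-fold (log2 fold change -0.55, SE 0.034, edgeR adjusted p = 9.60e-13). The groups lay far apart beside a spread of about 2.5 CPM in each. Idh1, the cytosolic enzyme of the same reaction, was read at 174, 170.0 and 180.0 CPM under GFP and at 171, 175 and 173 CPM under ChREBP-beta, within the spread of the libraries (edgeR adjusted p = 0.719).

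The NAD-dependent isocitrate dehydrogenase, the form that drives the cycle, has 3 kinds of subunit, of which 2 were called lower. Idh3g, a regulatory subunit, had 84.1, 85.3 and 85.0 CPM under GFP and 63.8, 71.1 and 72.5 CPM under ChREBP-beta and fell 1.23-fold (SE 0.047 on the log2 scale, edgeR adjusted p = 7.34e-06). Idh3a, the catalytic subunit, had 91.2, 86.2 and 82.7 CPM under GFP and 87.2, 87.5 and 85.5 CPM under ChREBP-beta (edgeR adjusted p = 0.998), the ChREBP-beta values lying within the GFP range. Idh3b, the other regulatory subunit, was called lower by 1.08-fold (edgeR adjusted p = 0.0376), with 90.8, 81.0 and 85.7 CPM under GFP and 79.4, 79.0 and 80.5 CPM under ChREBP-beta. This call was lost without any single library other than GFP replicate 2: without GFP replicate 1 or 3 or without ChREBP-beta replicate 1, 2 or 3 the edgeR adjusted p was 0.237, 0.0717, 0.101, 0.106 and 0.0657. Whether the subunits differed from each other in their change was not tested.

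Cs, citrate synthase, was read at 361 ± 3.10 CPM under GFP and 335 ± 7.36 CPM under ChREBP-beta (SD, n = 3) and fell 1.08-fold (edgeR adjusted p = 0.00170). Aco1, the cytosolic aconitase that doubles as an iron-responsive RNA-binding protein, stood at 102, 96.1 and 97.0 CPM under GFP and at 101, 104 and 99.2 CPM under ChREBP-beta and was not called (edgeR adjusted p = 0.371). In the 2-oxoglutarate dehydrogenase complex, Ogdh, the first enzyme, had 176, 179 and 187 CPM under GFP and 175, 179 and 171 CPM under ChREBP-beta (edgeR adjusted p = 0.257). Dlst, its succinyltransferase core, had 188, 198 and 191 CPM under GFP and 200.5, 201 and 206 CPM under ChREBP-beta. These groups did not overlap, and the difference of 0.07 on the log2 scale missed the threshold (SE 0.032, edgeR adjusted p = 0.0534). It was called higher without GFP replicate 2 (edgeR adjusted p = 0.0243) and without ChREBP-beta replicate 1 (edgeR adjusted p = 0.0415).

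Ogdhl, a paralog of Ogdh that is best known from brain (ENSMUSG00000021913.8, chromosome 14, 32322019 to 32348151, plus strand), showed the largest fold of the members at very low levels. Its counts were 29, 38 and 58 under GFP and 3, 2 and 5 under ChREBP-beta, or 1.52, 2.10 and 3.23 CPM against 0.163, 0.106 and 0.289 CPM. The fall was 11.98-fold (log2 fold change -3.58, SE 0.476, edgeR adjusted p = 6.00e-07). Even in the GFP libraries it made up only 1.62% ± 0.559 (SD, n = 3) of the Ogdh and Ogdhl counts per kilobase.

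From succinyl-CoA back to oxaloacetate, 5 of 6 members fell and 1 was not called, where 29.3% of all genes tested were called lower. Mdh1, the cytosolic malate dehydrogenase of the malate-aspartate shuttle, was read at 134, 124 and 125 CPM under GFP and at 101, 98.7 and 94.8 CPM under ChREBP-beta. Its fall was 1.30-fold (SE 0.039 on the log2 scale, edgeR adjusted p = 1.19e-08). Mdh2, the mitochondrial enzyme that closes the cycle, had 255, 247 and 248 CPM under GFP and 202, 211 and 215 CPM under ChREBP-beta and fell 1.20-fold (edgeR adjusted p = 1.38e-07). Neither gene's groups overlapped.

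Succinyl-CoA synthetase joins a shared alpha subunit, Suclg1, to a beta subunit that uses ADP (Sucla2) or GDP (Suclg2), and all 3 genes fell. Suclg2 was read at 68.9, 67.8 and 64.8 CPM under GFP and at 57.0, 56.7 and 55.4 CPM under ChREBP-beta, 1.19-fold lower (edgeR adjusted p = 5.72e-05). Sucla2 was read at 92.6, 104 and 100.4 CPM under GFP and at 86.1, 87.1 and 91.5 CPM under ChREBP-beta, 1.12-fold lower (edgeR adjusted p = 0.00245). Suclg1 fell 1.16-fold (edgeR adjusted p = 0.00444), although ChREBP-beta replicate 3, at 60.5 CPM, lay above GFP replicate 2, at 59.1 CPM, and without ChREBP-beta replicate 2 it was not called (edgeR adjusted p = 0.0611). Fh1, fumarase, had 77.5, 81.9 and 82.6 CPM under GFP and 77.7, 78.6 and 86.9 CPM under ChREBP-beta, with overlapping groups (edgeR adjusted p = 0.915).

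Among the enzymes that exchange pyruvate, malate and oxaloacetate, 3 of 4 members fell, where 29.3% of all genes tested were called lower. Pcx, pyruvate carboxylase, which makes oxaloacetate from pyruvate and is the main anaplerotic enzyme of many tissues (ENSMUSG00000024892.17, chromosome 19, 4510472 to 4621752, plus strand), was read at 17.6, 18.0 and 18.9 CPM under GFP and at 5.55, 4.68 and 4.57 CPM under ChREBP-beta. The fall of 3.67-fold (log2 fold change -1.88, SE 0.113, edgeR adjusted p = 4.29e-13) had the smallest p of all members. Across all alternative fits, including those without each library, its log2 fold change stayed between -1.96 and -1.82. Each GFP library was more than 3 times as high as each ChREBP-beta library.

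Me2, the mitochondrial NAD-dependent malic enzyme, had 99.8, 96.6 and 96.5 CPM under GFP and 77.0, 83.3 and 82.0 CPM under ChREBP-beta and fell 1.21-fold (edgeR adjusted p = 3.33e-06). Me3, the mitochondrial NADP-dependent form, was hardly read: 18, 31 and 30 counts under GFP and 11, 4 and 8 counts under ChREBP-beta, a fall of 3.36-fold with a wide error (SE 0.438 on the log2 scale, edgeR adjusted p = 0.00143). Their cytosolic relative Me1, an NADPH source for fat synthesis that is not among the 34, moved the other way, from 127, 128 and 129.7 CPM to 148, 153 and 145 CPM (1.16-fold higher, edgeR adjusted p = 8.24e-06). Pck2, the mitochondrial carboxykinase that turns oxaloacetate into phosphoenolpyruvate, had 52.0, 50.3 and 50.8 CPM under GFP and 47.4, 48.7 and 46.8 CPM under ChREBP-beta. The groups did not overlap, the gene was not called (edgeR adjusted p = 0.103), and its deposited counts are not whole in 2 libraries, as where reads are split between genes. Pck1, the cytosolic carboxykinase, was at 0 counts under GFP and at 5, 5 and 3 counts under ChREBP-beta and was too low to be tested. Set against 3 counts over the whole GFP group, the limit that a count of 0 allows, it was at least 4.39-fold higher, a value that takes the 13 ChREBP-beta counts as exact and whose limit covers counting error in the GFP group only.

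**Figure D2:**
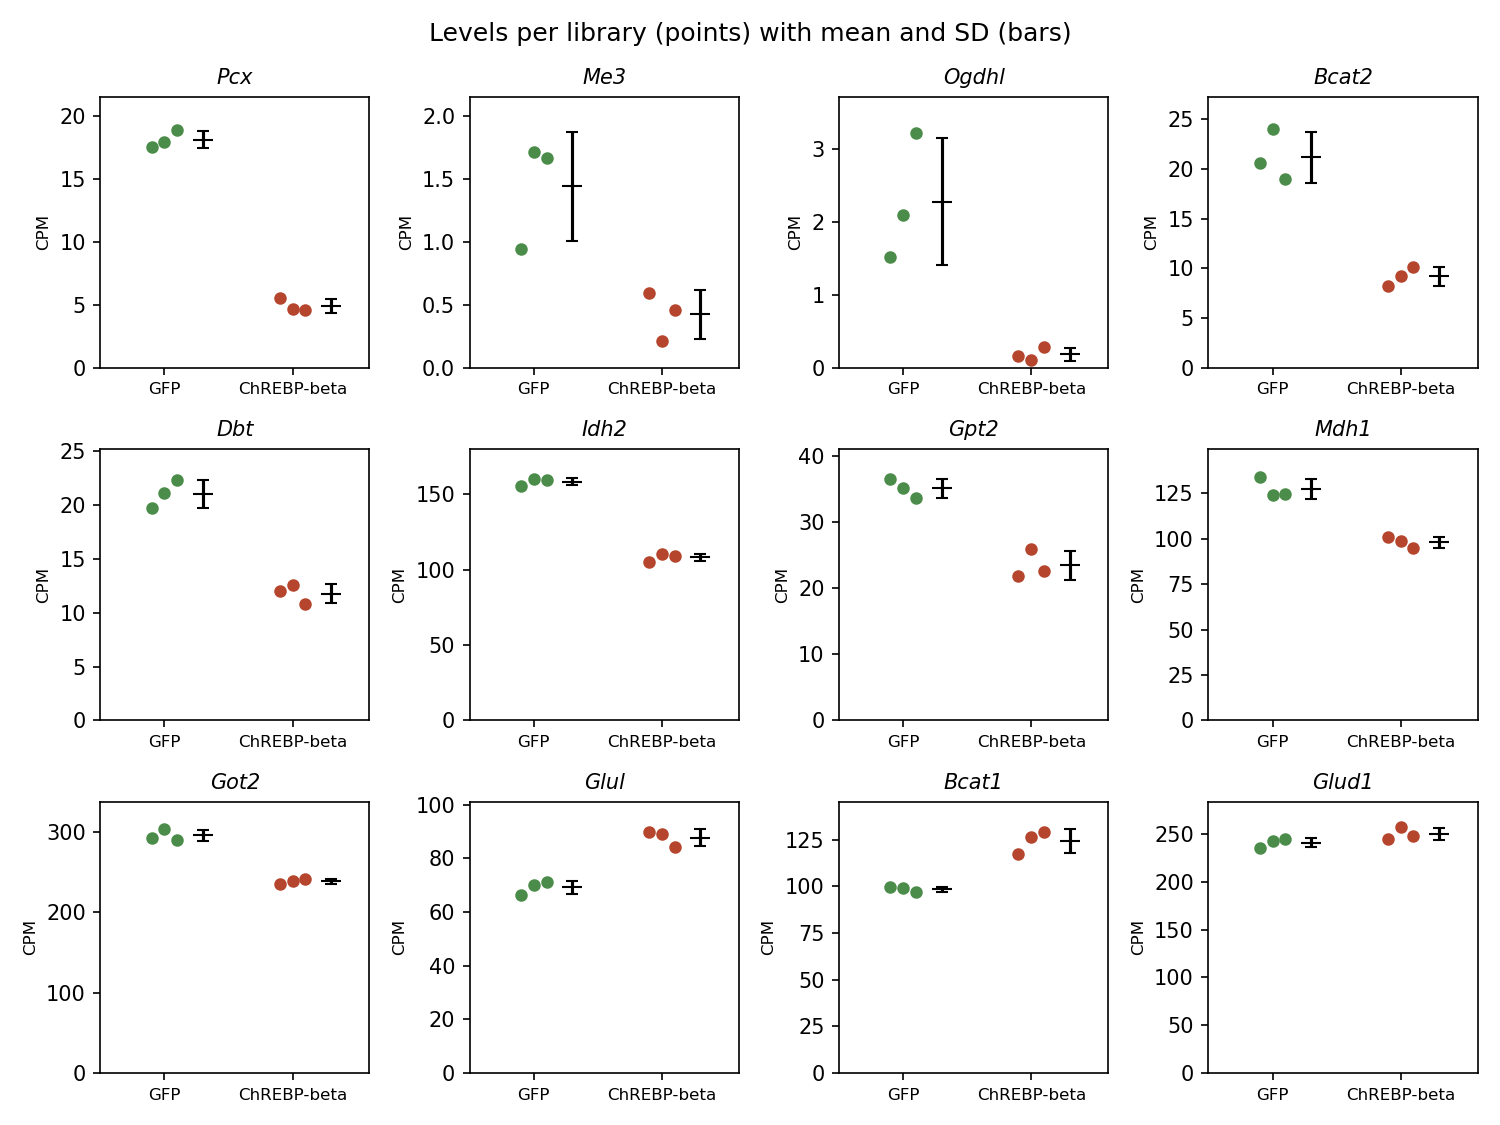
Levels in CPM (vertical axes, starting at 0) of 12 members in the 3 GFP and 3 ChREBP-beta libraries; each point is a library and the bar beside it gives mean and SD. For the 11 called members shown the groups are separate, with Glul and Bcat1 higher and the other 9 lower with ChREBP-beta; Glud1, which was not called, has its groups side by side at 236 to 245 and 245 to 257 CPM.

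Promoter sequence from RefSeq (GRCm38.p6, 250 bases before to 50 after each annotated start) was given for 31 of the 34 members, in 41 promoters. The E-box CACGTG, the core letters bound by ChREBP with Mlx and by many related factors, was searched on both strands and was found for 3 members, Pcx, Ogdhl and Ogdh (9.68% of the matched members and 8.09% of all genes with promoters there). Of the 3, Pcx and Ogdhl fell and Ogdh was not called. One stretch per matched member is shown, to set the E-box, in capitals, in its surroundings: chr19:4510222-4510301 for Pcx, where it begins 248 bases before the start, chr14:32321939-32322019 for Ogdhl, where it begins 5 bases before the start and ends on the first transcribed base, and chr11:6292020-6292099 for Ogdh, where it begins 110 bases before one of several starts, all on the plus strand. Ogdh has another E-box at chr11:6292417-6292422, 141 and 162 bases before other annotated starts, which is not shown.
Pcx: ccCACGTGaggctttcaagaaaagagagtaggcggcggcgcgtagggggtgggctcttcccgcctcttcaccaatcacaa
Ogdhl: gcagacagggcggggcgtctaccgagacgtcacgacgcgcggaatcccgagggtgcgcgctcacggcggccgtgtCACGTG
Ogdh: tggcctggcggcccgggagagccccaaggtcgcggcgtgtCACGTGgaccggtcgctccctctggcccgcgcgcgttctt
The paired carbohydrate response element, in its degenerate consensus, was found in no member promoter and in 0.0274% of all promoters. The NRF1 palindrome (0.971% of all promoters) and the ERR element TCAAGGTCA (0.423%) were likewise in no member promoter. A missing match says only that these letters are not in this window.

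In the exchange of glutamate, aspartate, alanine and glutamine, 2 members fell, 1 rose and 2 were not called. Of all genes tested, 29.3% were called lower and 29.5% higher. Gpt2, the mitochondrial alanine aminotransferase, which links pyruvate and glutamate to alanine and 2-oxoglutarate (ENSMUSG00000031700.11, chromosome 8, 85492576 to 85527560, plus strand), had 36.5, 35.2 and 33.6 CPM under GFP and 21.8, 26.0 and 22.6 CPM under ChREBP-beta. It fell 1.50-fold (SE 0.072 on the log2 scale, edgeR adjusted p = 1.95e-07), the lowest GFP library being above the highest ChREBP-beta library. Got2, the mitochondrial aspartate aminotransferase, was read at 293, 303 and 289.7 CPM under GFP and at 235, 238 and 241 CPM under ChREBP-beta and fell 1.24-fold (SE 0.030 on the log2 scale, edgeR adjusted p = 2.71e-09). Got1, its cytosolic partner in the malate-aspartate shuttle, had 28.1, 28.3 and 28.0 CPM under GFP and 27.1, 27.7 and 30.1 CPM under ChREBP-beta (edgeR adjusted p = 0.918), with ChREBP-beta libraries on both sides of the GFP values.

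Glul, glutamine synthetase, which fixes ammonia onto glutamate (ENSMUSG00000026473.15, chromosome 1, 153899944 to 153909723, plus strand), was the member of this group that rose. It was read at 66.5, 70.1 and 71.2 CPM under GFP and at 89.8, 89.3 and 84.3 CPM under ChREBP-beta, 1.27-fold higher (SE 0.044 on the log2 scale, edgeR adjusted p = 2.97e-07). Glud1, glutamate dehydrogenase, had 236, 243 and 245 CPM under GFP and 245, 257 and 248 CPM under ChREBP-beta. It was not called (log2 fold change 0.05, SE 0.031, edgeR adjusted p = 0.135), and its lowest ChREBP-beta library lay just above its highest GFP library.

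The branched-chain amino acids leucine, isoleucine and valine are first transaminated, by cytosolic Bcat1 or mitochondrial Bcat2, and the keto acids are then oxidised by the branched-chain keto acid dehydrogenase (Bckdha, Bckdhb and Dbt with Dld). The transaminases moved in opposite directions. Bcat1 (ENSMUSG00000030268.17, chromosome 6, 144993835 to 145076184, minus strand) was read at 99.6, 99.1 and 97.0 CPM under GFP and at 117, 126 and 129 CPM under ChREBP-beta, 1.26-fold higher (log2 fold change 0.33, SE 0.040, edgeR adjusted p = 9.89e-08). Bcat2 (ENSMUSG00000030826.19, chromosome 7, 45570153 to 45589711, plus strand) was read at 20.6, 24.0 and 19.0 CPM under GFP and at 8.27, 9.20 and 10.1 CPM under ChREBP-beta, 2.31-fold lower (log2 fold change -1.21, SE 0.106, edgeR adjusted p = 5.45e-10). Neither pair of groups overlapped. At Bcat2, 16.0% of the annotated exon bases lie opposite a transcript of 0610005C13Rik, and without a known strand setting reads of both cannot be told apart.

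Dbt, the acyltransferase core of the keto acid dehydrogenase (ENSMUSG00000000340.10, chromosome 3, 116513070 to 116549981, plus strand), had 19.7, 21.1 and 22.3 CPM under GFP and 11.97, 12.5 and 10.8 CPM under ChREBP-beta, a fall of 1.78-fold (SE 0.092 on the log2 scale, edgeR adjusted p = 3.03e-08). Bckdha, the alpha subunit of its first enzyme, had 13.4, 12.7 and 9.86 CPM under GFP and 12.1, 14.3 and 12.2 CPM under ChREBP-beta and was not called (edgeR adjusted p = 0.465). Its value is uncertain, because its deposited counts are not whole in 5 libraries and 61.7% of its annotated exon bases lie opposite exons of B3gnt8, which itself had 5 to 11 counts per library. Bckdhb, the beta subunit, had only 9, 3 and 4 counts under GFP and 0, 3 and 0 counts under ChREBP-beta and was not tested. The ratio of GFP to ChREBP-beta was 5.27 (95% counting interval 1.51 to 28.2, which covers counting error only).

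Beyond the dehydrogenase, the route continues through enzymes that are not among the 34. All 14 listed genes of the later oxidation steps and of the conversion of propionyl-CoA to succinyl-CoA fell, where 29.3% of all genes tested were called lower, with a median log2 fold change of -0.62 and a range of -1.33 to -0.16. Ivd, isovaleryl-CoA dehydrogenase of leucine breakdown, fell 2.51-fold between 29.4 ± 1.26 CPM under GFP and 11.7 ± 2.05 CPM under ChREBP-beta (SD, n = 3, edgeR adjusted p = 1.69e-11). Mmut, the mutase that delivers succinyl-CoA to the cycle, fell 2.08-fold (58.7 ± 2.71 CPM under GFP, 28.2 ± 1.39 CPM under ChREBP-beta, SD, n = 3, edgeR adjusted p = 1.03e-13), and Pcca, a subunit of propionyl-CoA carboxylase, fell 1.97-fold (edgeR adjusted p = 3.12e-10). Of the pair that sets the activity of the dehydrogenase, the phosphatase gene Ppm1k fell 2.29-fold (edgeR adjusted p = 1.99e-04; counts not whole in any of the 6 libraries), and the kinase gene Bckdk stood at 59.1 ± 3.39 and 58.9 ± 2.96 CPM (SD, n = 3; edgeR adjusted p = 0.944). This grouping of the listed genes by step was made after their values were seen, as was the choice of Ivd, Mmut, Pcca, Ppm1k and Bckdk as examples.

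**Figure D3:**
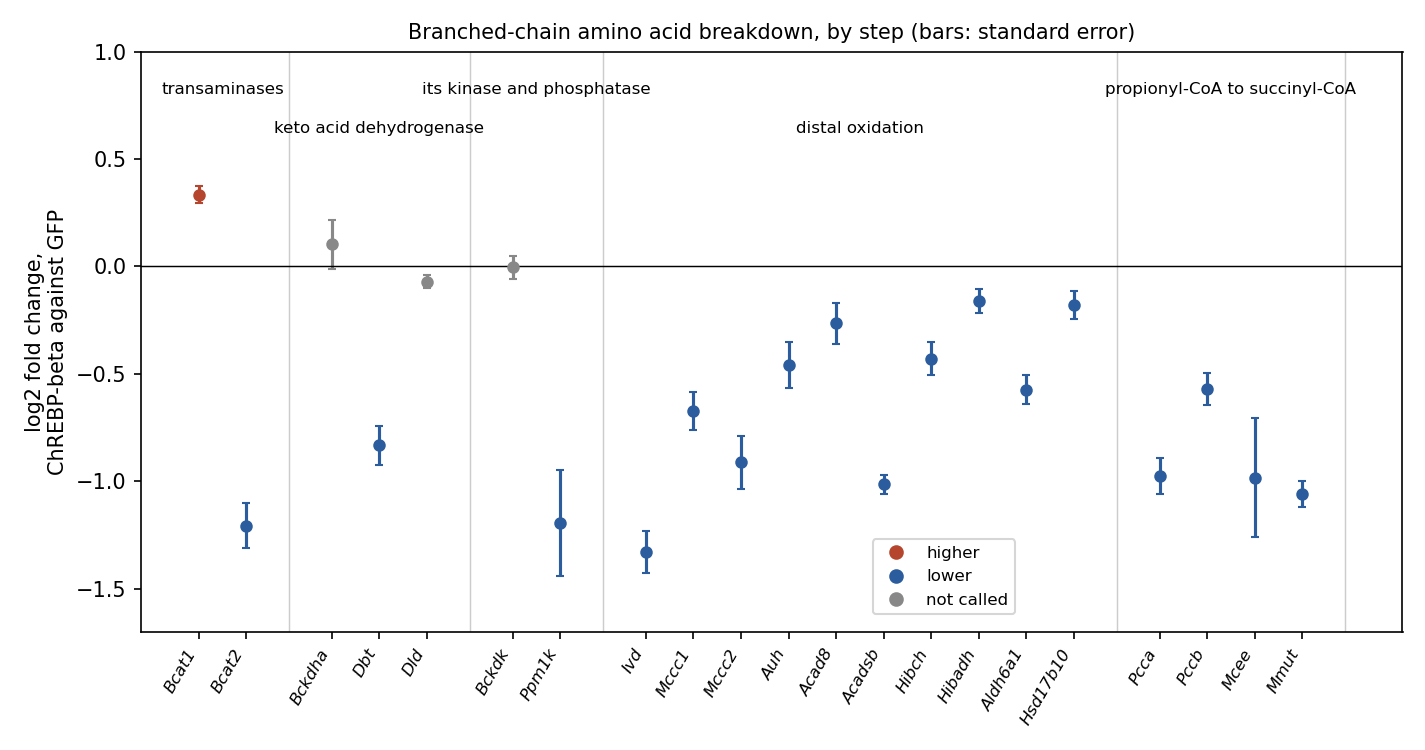
Log2 fold change (vertical axis, ChREBP-beta against GFP, bars showing the standard error) of genes of branched-chain amino acid breakdown, placed along the horizontal axis by step and coloured by the edgeR call. Bcat1 is the one gene called higher; Bcat2, Dbt, Ppm1k and the 14 genes of the later steps lie below 0 and were called lower.

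Enzymes with a related gene were also compared as shares, in which each library serves as its own scale. Each share is the counts per kilobase of 1 gene in percent of its set, and 9 sets are reported. Bcat1 made up 67.0, 63.3 and 68.1% of the 2 transaminases in the GFP libraries and 85.6, 85.2 and 84.3% in the ChREBP-beta libraries, a difference of 18.9 percentage points. The share of Idh1 beside Idh2 was 51.1, 49.8 and 51.3% under GFP and 60.2, 59.7 and 59.7% under ChREBP-beta, or 9.16 points more. For Me1 beside Me2 and Me3 the share went from 71.1% ± 0.575 to 77.6% ± 0.730 (SD, n = 3).

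Got1 made up 15.3% ± 0.252 of the aspartate aminotransferases under GFP and 18.4% ± 0.644 under ChREBP-beta (SD, n = 3). In 5 of the 6 sets that set a cytosolic beside a mitochondrial enzyme, the cytosolic share was larger in every ChREBP-beta library than in every GFP library. Among the levels of all genes tested, 31.3% were separated upward and 32% downward, together 63.2%. These are levels of single genes, and no such percentage was worked out for shares. For Idh1 and Got1 the cytosolic gene itself was not called, and its mitochondrial relative was called lower. This grouping by compartment was not part of the planned comparison of shares. The exception was the malate dehydrogenases, where Mdh1 made up 41.4% ± 0.633 under GFP and 39.4% ± 1.44 under ChREBP-beta (SD, n = 3). The carboxykinases count among the 5, but through only 13 counts of Pck1.

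The shares of Ogdhl and Me3 were below 3% in every library and lower in each ChREBP-beta library. Sucla2 beside Suclg2 stood at 63.0% ± 1.83 and 64.5% ± 1.06 (SD, n = 3), with overlapping groups (two-sided exact permutation test, p = 0.5, adjusted p = 0.5). For the other 8 sets the groups did not overlap and the two-sided exact permutation test gave p = 0.1 (Benjamini-Hochberg adjusted p = 0.11 over the 9 sets), the smallest that 3 against 3 allows, so no share could pass 0.05.

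**Figure D4:**
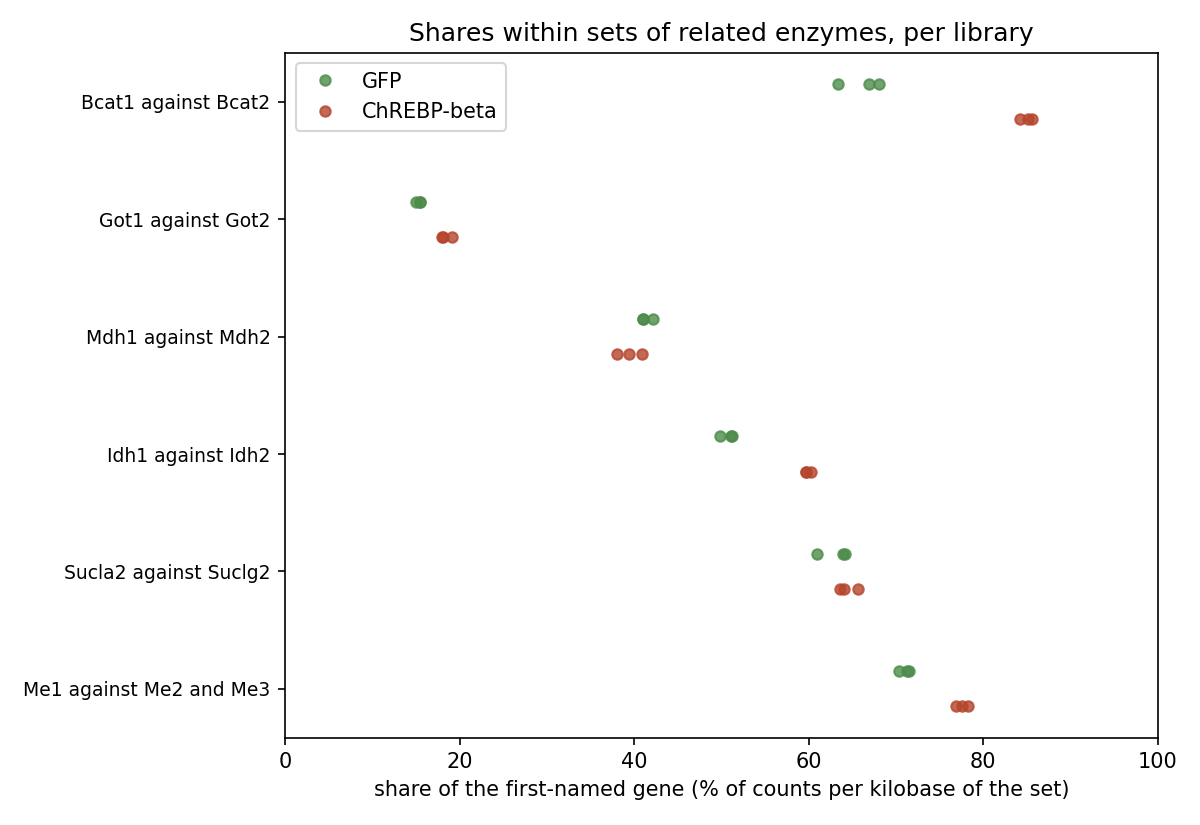
Share of the first-named gene in the counts per kilobase of its set (horizontal axis, percent) in each library, for 6 of the 9 sets on the vertical axis; the sets of Ogdhl, Me3 and Pck2, whose shares lie near 0 or 100%, are left out. The GFP and ChREBP-beta points are widest apart for Bcat1 against Bcat2 and overlap for Sucla2 against Suclg2.

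Of the wider list of 62 pathway genes that are not among the 34, 61 could be tested. Of these, 13 rose, 32 fell (52.5%) and 16 were not called, where 29.5% of all genes tested were called higher and 29.3% lower. This list was chosen with earlier results of these data known. The 3 largest rises were in Acly, which splits exported citrate into acetyl-CoA for fat synthesis (371, 366 and 371 CPM under GFP and 1631, 1617 and 1623 CPM under ChREBP-beta, edgeR adjusted p = 1.07e-26), in Prodh, proline dehydrogenase (2.96-fold, edgeR adjusted p = 1.55e-08), and in Slc1a5, a glutamine transporter (17.7, 19.5 and 18.4 CPM against 33.8, 31.8 and 34.1 CPM, 1.79-fold, edgeR adjusted p = 2.64e-10). The 3 largest falls were in Pdk4, a kinase that inhibits pyruvate dehydrogenase (51.3, 50.3 and 50.5 CPM under GFP and 5.88, 5.05 and 4.86 CPM under ChREBP-beta, edgeR adjusted p = 9.27e-21), in Abat, a transaminase of the neurotransmitter GABA read at 0.785, 1.05 and 1.06 CPM against 0.381, 0.319 and 0.231 CPM (3.04-fold, edgeR adjusted p = 0.00487), and in Aldh4a1, which follows Prodh in proline breakdown (2.66-fold, edgeR adjusted p = 2.07e-10). Of the 4 succinate dehydrogenase subunits on the list, Sdhb and Sdhc fell and Sdha and Sdhd were not called. Both subunits of the mitochondrial pyruvate carrier fell, Mpc1 1.41-fold and Mpc2 1.25-fold (edgeR adjusted p = 4.47e-09 and 0.00494).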

How the data were processed

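Estimated counts per gene symbol were deposited by the authors as a single table with 1 column per library, not normalized, in which 7.74% of values are not whole (farther than 1e-06 from a whole number). TopHat2 2.0.0, Bowtie2 2.0.0.5 and fastp are listed, per the submitters' processing notes, with the genome build GRCg6a, which is a chicken assembly although the table holds mouse symbols. Which mouse build, annotation, counter and strand setting were used is not stated, so reads of overlapping or antisense genes may be mixed. GENCODE M21 (GRCm38) gave locations and exon lengths by symbol and may differ from the build the authors used.

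For 24 repeated symbols the rows were added, and counts were then rounded. With edgeR 4.0.16 (R 4.3.3), filterByExpr (minimum count 10, minimum total 15) kept 12166 genes, libraries were scaled by TMM, and the quasi-likelihood test compared the groups, two-sided, with Benjamini-Hochberg adjustment. Each SE was taken as log2 fold change over the root of the F statistic. On counts simulated from these libraries (12060 genes), with 49 or 50 genes changed at each fold, the procedure recovered 65.3% of 1.25-fold and 85.7% of 1.5-fold changes. Of 186 calls 17 were false, a larger share than the threshold of 0.05 aims at. Far more genes were called in the real comparison, so these rates may not carry over to it. Alternatives were other scalings and filters, DESeq2 1.42.0, limma-voom (limma 3.58.1), a replicate block, rounding down and leaving out each library.

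The members, the pathway list, the marker lists and the tests were chosen with earlier results of these data known. Library values are given for the up to 3 called members with the largest change per role, for members not called and for related enzymes, and of the wider list for the 3 largest rises and falls. Some genes of the wider list and the shares that need them are not reported here. Libraries of a group differed by a chi-square per degree of freedom of 2.14 to 3.95, above sampling noise.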

Additional observations from a re-analysis of the deposited data

How the results depend on the processing

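Of the 21 called members, 19 kept their call and direction in each of the alternatives that tested them (15, or 14 for Ogdhl and Me3, which had too few counts for a mean of at least 5 CPM), and 2, Idh3b and Suclg1, lost the call in some. Idh3b also lost it with DESeq2 (adjusted p = 0.0725). Of the 12 members not called, 4 were called in some. Dld was called lower in 3 alternatives, and Pck2 and Ogdh in 2 each. With library size alone their edgeR adjusted p was 0.00285, 0.0186 and 0.0243, and with upper-quartile scaling 0.00639, 0.0315 and 0.0467. Dld was also called with a mean of at least 5 CPM (edgeR adjusted p = 0.0209). Dlst was called higher in 4, among them DESeq2 (adjusted p = 0.0403) and RLE scaling (edgeR adjusted p = 0.0451). The count of members called lower ran from 17 to 22.

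The sign turned for 7 members, none of them called. Log2 fold changes with RLE scaling, no filter and DESeq2 were 0.0015, 0.00073 and 0.0034 for Dlat and 0.0038, 0.0031 and 0.0058 for Idh3a, which gave 0.00058 with limma-voom and 0.00047 with the replicate block. With upper-quartile scaling, library size alone and a mean of at least 5 CPM, Fh1 gave -0.026, -0.040 and -0.0088 and Got1 -0.024, -0.038 and -0.0062, and Aco1 gave -0.0048 with library size alone. With each library left out, the values ran from -0.021 to 0.033 for Dlat, -0.028 to 0.013 for Idh1, -0.027 to 0.037 for Idh3a, -0.043 to 0.043 for Fh1, -0.034 to 0.047 for Got1 and -0.014 to 0.19 for Bckdha.

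Without division by length, the share of Bcat1 differed by 10.8 percentage points, Got1 by 1.93, Me1 by 8.28, Me3 by -0.93 and Pck2 by -0.49.

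Replicate numbers did not pair the samples: deviations from the group means of same-numbered libraries correlated at -0.018, 0.0015 and -0.040. With the replicate block 2 members were higher and 19 lower, and 6902 genes were called, 3474 of them higher. Counts under 60, as for Ogdhl, Me3 and Bckdhb, limit the precision of their folds.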

Other observations

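Genes of proline metabolism, listed with the wider pathway, were called in both directions. Pycr1, which makes proline in the mitochondrion, rose 1.40-fold, and Aldh18a1, which starts its synthesis from glutamate, rose 1.09-fold (edgeR adjusted p = 1.39e-05 and 0.0150). Prodh, which opens proline breakdown, was read at 2.62, 3.15 and 2.56 CPM with GFP and at 7.56, 8.82 and 8.33 CPM with ChREBP-beta, while Aldh4a1, the next enzyme, was read at 13.5, 14.6 and 15.8 CPM and at 5.22, 5.85 and 5.43 CPM. Oat, ornithine aminotransferase, had 132 ± 1.87 and 129.8 ± 1.88 CPM (SD, n = 3; edgeR adjusted p = 0.554).

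Around aspartate, Asns, asparagine synthetase, rose 1.30-fold from 64.9 ± 6.03 to 84.2 ± 2.42 CPM, whereas Ass1 and Asl, which make arginine from citrulline and aspartate, fell 1.09-fold and 1.63-fold (SD, n = 3; edgeR adjusted p = 1.32e-06, 0.00559 and 2.62e-05). The amino acid transporter genes Slc3a2, whose counts are not whole in any of the 6 libraries, and Slc7a5 rose 1.30-fold and 1.11-fold (edgeR adjusted p = 7.97e-09 and 0.0156). Of the mitochondrial carriers, Slc25a1, which exports citrate, rose 1.10-fold, and Slc25a10, Slc25a11 and Slc25a12, carriers of dicarboxylates, of malate with 2-oxoglutarate and of aspartate with glutamate, fell 1.29-fold, 1.28-fold and 1.24-fold (edgeR adjusted p = 0.00640, 2.81e-05, 2.97e-07 and 2.08e-06). The carrier genes Slc25a13, Slc25a22 and Slc25a44 were not called (edgeR adjusted p = 0.223, 0.367 and 0.0702). These sets were picked from the list after their values were seen.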
